A study of Rattus with 6 samples.

Results

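Complement components and regulators were followed at the mRNA level in H9C2 cells, a line derived from embryonic rat heart that keeps a myoblast-like character. The 9 genes were chosen by symbol: the proteases and convertase parts C1r, C1s, Masp1, C2, Cfb and C3, and the regulators Serping1, Cd55 and Cd46. All 9 were listed among the 20742 genes of the count table. The 3 control libraries came from H9C2 cells given a control plasmid, and the 3 RBM25 libraries from H9C2 cells labelled as overexpressing RBM25, an RNA-binding protein that takes part in splice-site choice. All groups are the same cell line; the time after plasmid delivery, the plasmid backbone and the number of separate cultures are not stated in the labels. The p-values therefore measure only the spread among these libraries, part of which may be technical.

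Complement is a cascade of proteases that tags and lyses targets and calls in inflammatory cells. The classical pathway starts with C1, in which the recognition protein C1q activates the protease pair C1r and C1s; the lectin pathway uses MASP proteases in the same way. Both cleave C4 and C2 to build a C3 convertase, while the alternative pathway builds its own from C3 and factor B, the product of Cfb. Host cells limit the cascade with the soluble C1 inhibitor (Serping1) and with membrane proteins such as CD55, CD46, CD59 and, in rodents, Crry, the product of Cr1l. The liver secretes most plasma complement, but fibroblasts, muscle cells and macrophages also make parts of it, and interferon and NF-kB signalling are known inducers of several of these genes.

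Libraries held 25543849 to 33130256 counted reads. The targeted gene Rbm25 was at 49.2, 44.5 and 45.7 CPM (reads scaled to library size) in controls 1 to 3 and at 56.3, 55.9 and 60.1 CPM in RBM25 libraries 1 to 3, so each RBM25 library was above each control. By edgeR it rose, with an adjusted p of 0.0011 and a log2 fold change of 0.30 ± 0.047 (SE). An exact two-sided permutation test gave p = 0.1, the smallest that 3 libraries against 3 allow. The related gene Rbm25l1 had 1, 1 and 3 control reads and 147, 114 and 105 RBM25 reads, and how reads of plasmid RNA were split between these similar genes is uncertain. RBM25 replicate 3 stood apart from the others of its group, at a chi-square of 6.22 and 4.79 for each degree of freedom against replicates 1 and 2, where that between replicates 1 and 2 was 3.21. All 12 muscle markers fixed for the cell type had reads, among them Tnnt2, Casq2 and Myod1, while Actc1 and Tnni1 were below 1 CPM in the control mean (0.776 and 0.628 CPM). The summed level of those markers was 975 to 990 CPM in controls and 1012 to 1064 CPM with RBM25, so the groups did not overlap; its part in the results below was not tested. Of 8 hepatocyte markers, 7 were listed and sum to 1.33 to 1.65 CPM in controls and 1.54 to 2.27 CPM with RBM25, with 1 read of Alb in all 6 libraries. Of 10 macrophage and leukocyte markers, Ptprc, Adgre1 and Tyrobp were not listed, and the sum of the other 7 was 38.7 to 42.4 CPM in controls and 38.0 to 43.3 CPM with RBM25, most of it Cd14. Fibroblast markers summed to 22999 to 25270 CPM in controls and 23266 to 24491 CPM with RBM25, most of it Col1a1 and Col1a2. Epithelial markers summed to 780 to 838 and 756 to 903 CPM, nearly all Krt7, while Epcam and Cdh1 had 1 and 2 reads in all. Endothelial markers, nearly all Eng, summed to 103 to 109 CPM in controls and 101 to 102 CPM with RBM25, again without overlap, and the part of this in the results was not tested.

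In control cells the complement transcripts spanned a wide range, with 1 protease gene far above the rest. Levels between genes were compared per length, in FPKM, the length-scaled values deposited by the authors. C1r led with 158, 162 and 166 FPKM, a mean of 162 ± 4.35 FPKM (SD, n = 3), and ranked 490th of 20395 genes. Its partner C1s, which C1r cleaves and which then cleaves C4 and C2, was next at 26.3 ± 1.06 FPKM (SD, n = 3). Masp1, a protease of the lectin pathway, followed at 11.8 ± 0.297 FPKM, and Cd55, which speeds the decay of convertases, at 4.40 ± 0.403 FPKM (SD, n = 3). These 4 did not overlap with their neighbours in the order. Masp1 had more reads than C1s (2872 to 3647 against 2195 to 2839 in controls) although its FPKM was lower, the deposited values implying a gene length of 9.69 kb for Masp1 and 3.33 kb for C1s.

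The remaining 5 genes were below 1 FPKM in every library. Cd46, whose protein in rodents is known mainly from the testis, was at 0.613 ± 0.0379 FPKM in controls (SD, n = 3). Cfb and C2, which encode related proteases that play the same part in the alternative and the classical convertase, were at 0.197 ± 0.0306 and 0.177 ± 0.0153 FPKM (SD, n = 3), and their control libraries overlapped. C3, the protein on which all 3 pathways converge, was at 0.01, 0.07 and 0.02 FPKM in controls 1 to 3. Serping1, whose product is the inhibitor of C1r and C1s, was listed at 0.02, 0 and 0.02 FPKM, the lowest of the 9. C1r, C1s and Masp1 together took 94.9% to 95.8% of the reads of the 9 genes in each library. The abundant transcripts thus encoded the proteases C1r and C1s, while that of the C1 inhibitor was at 0 or 1 read per library.

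**Figure D1:**
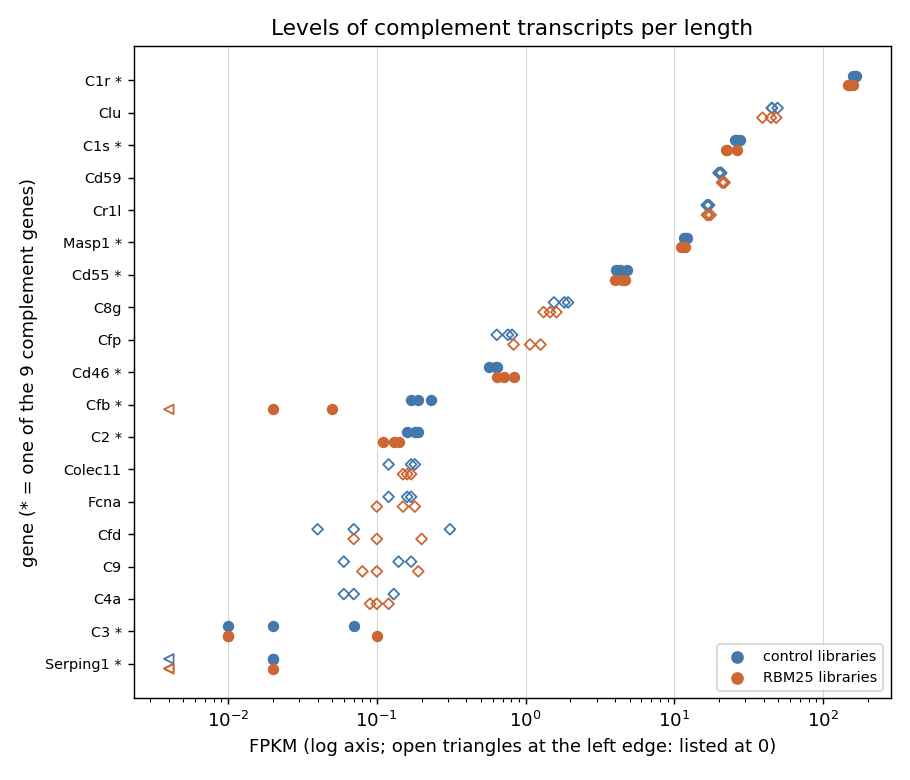
Deposited FPKM of complement genes on a log axis, 1 point per library, for the 9 genes (filled circles, names with an asterisk) and the other complement genes with a control mean of at least 0.05 FPKM (open diamonds). Control libraries are blue and RBM25 libraries orange, and open triangles at the left edge are values listed at 0. C1r lies between 147 and 166 FPKM in all 6 libraries, and the Cfb points of the RBM25 libraries lie to the left of all its control points.

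Under RBM25 overexpression 1 of the 9 genes, Cfb, passed the test, and it was lower; it entered the test through its control libraries alone, and its call depends on the tool and filter, as given below. Cfb, which encodes factor B, had 12, 18 and 16 reads in controls 1 to 3 and 2, 0 and 4 reads in RBM25 libraries 1 to 3. The highest RBM25 library was thus below the lowest control. On the scaled level this was 0.538 ± 0.0801 CPM against 0.0679 ± 0.0718 CPM (SD, n = 3 each), and the log2 fold change was -2.98 ± 0.58 (SE; 95% interval -4.17 to -1.78), with an adjusted p of 0.0122 by edgeR. The ratio of summed reads, 6 against 46 and scaled by library size, was 0.12 with an exact 95% interval of 0.042 to 0.283, which covers counting error only. The 0 reads in RBM25 replicate 2 allow a level of up to 0.0948 CPM (3 reads). In bulk RNA, fewer cells that express Cfb and less Cfb RNA per cell cannot be told apart. Over all 12882 genes tested, 0.404% were called in either direction and 0.0466% were called lower.

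The Cfb call rests on few reads. Cfb passed the filter on low counts through the control libraries alone, since all 3 of them and none of the RBM25 libraries reached 0.334 CPM. Of 1272 tested genes with a mean log2 CPM below 0, 2 were called and Cfb was the only one called lower. Leaving out 1 library at a time, the log2 fold change stayed between -3.95 and -2.40 and the call was kept in 3 of 6 fits; it was lost without control replicate 2, control replicate 3 or RBM25 replicate 2 (edgeR adjusted p = 0.181, 0.0773 and 0.0984). DESeq2 called it on the same filtered genes (adjusted p = 0.0352) but not without the filter (adjusted p = 0.0639), while edgeR without the filter called it (adjusted p = 2.88e-04). On FPKM values, which the authors rounded to 2 decimals, Cfb went from 0.17, 0.23 and 0.19 to 0.02, 0 and 0.05, and limma-trend on log2(FPKM + 0.1) did not call it (log2 difference -1.28, adjusted p = 0.342).

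C2, the classical-pathway counterpart of Cfb and its neighbour on chromosome 20 in both the files and RefSeq's GRCr8 gene table, had 14, 13 and 16 control reads and 10, 12 and 11 RBM25 reads. In CPM the groups did not overlap (0.507 ± 0.0493 against 0.359 ± 0.0485, SD, n = 3 each). Its log2 fold change of -0.50 did not pass (95% interval -1.25 to 0.25; edgeR adjusted p = 0.647), and the ratio of summed reads was 0.708 with an exact 95% interval of 0.436 to 1.14. C3 had too few reads to be tested: 2, 11 and 4 in controls and 2, 1 and 15 with RBM25, or 17 against 18 in all. One library in each group held most of them, control replicate 2 and RBM25 replicate 3. The scaled ratio of C3 reads was 0.977 (exact 95% interval 0.475 to 2.02), and it was 0.232 without RBM25 replicate 3 and 1.83 without control replicate 2, so no direction can be given for C3 at this depth.

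**Figure D2:**
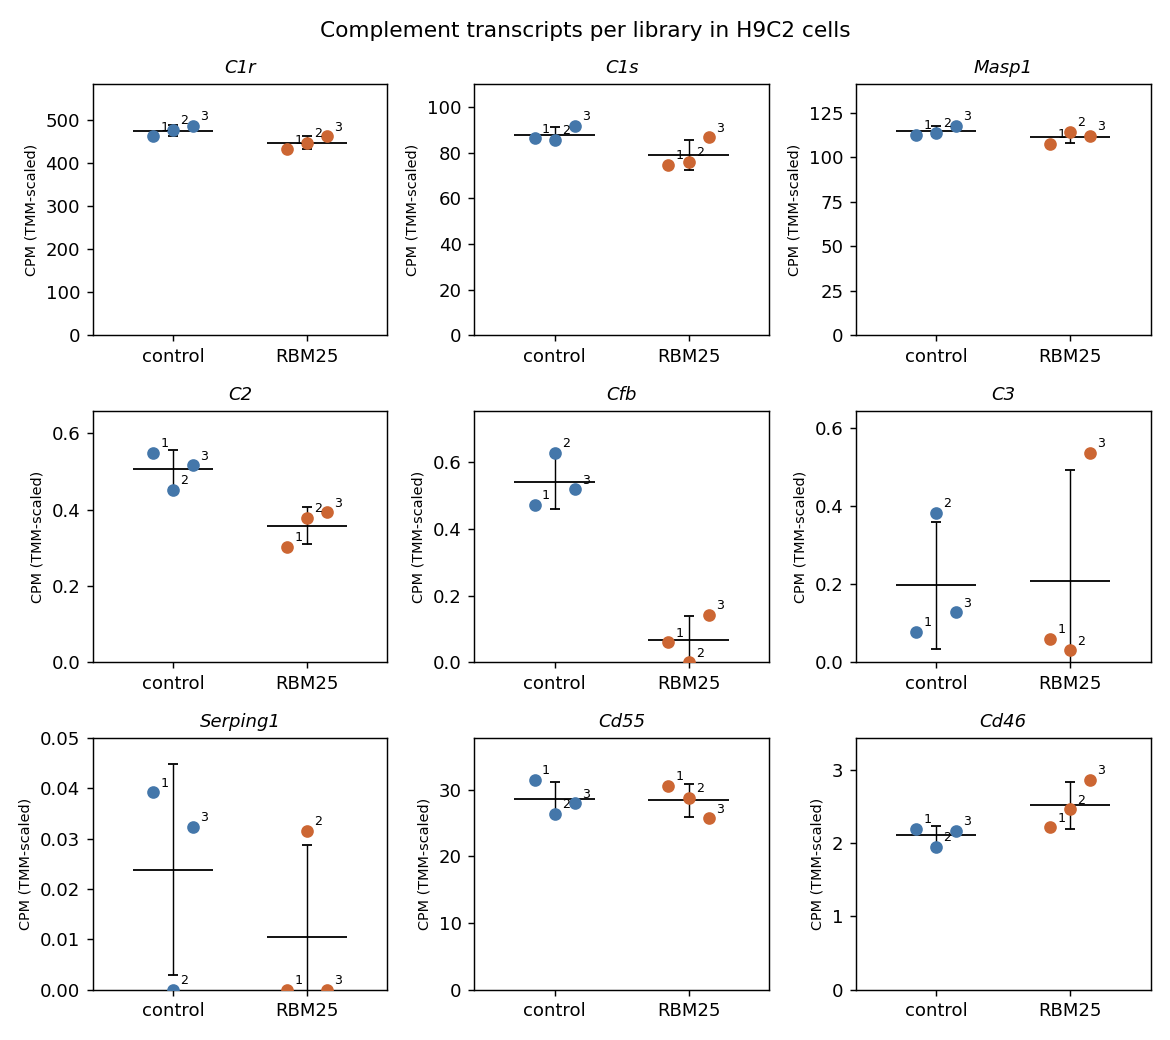
Level of each of the 9 complement genes in CPM scaled by TMM factors, on a linear axis from 0 with its own range in each panel. Points are libraries numbered by replicate, horizontal lines are means and bars are SDs over 3 libraries, drawn only where above 0. The RBM25 points of Cfb (0 to 0.143 CPM) lie below its control points (0.471 to 0.627 CPM), and C3 shows 1 high library in each group.

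The initiating proteases C1r and C1s had slightly lower means with RBM25, and neither passed the test. C1r was at 462, 477 and 487 CPM in controls 1 to 3 and at 432, 446 and 462 CPM in RBM25 libraries 1 to 3. The groups did not overlap, though by a narrow margin, RBM25 replicate 3 (461.9 CPM) lying just under control replicate 1 (462.1 CPM). Its log2 fold change was -0.089 ± 0.032 (SE; 95% interval -0.154 to -0.023; edgeR adjusted p = 0.259). C1s was at 86.2, 85.7 and 91.8 CPM in controls and at 74.7, 75.9 and 86.6 CPM with RBM25. Replicates 1 and 2 of the RBM25 group lay below all controls, whereas replicate 3 lay within their range. The log2 fold change of C1s was -0.16 ± 0.049 (SE; 95% interval -0.259 to -0.052; edgeR adjusted p = 0.213).

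Among the fits that left out 1 library, C1r and C1s were called only without RBM25 replicate 3. Without that library the level of C1s fell by 14.4% (log2 fold change -0.22 ± 0.040, SE; adjusted p = 1.92e-04 by edgeR). C1r decreased by 7.53% (log2 fold change -0.11 ± 0.031, SE; adjusted p = 0.0245 by edgeR). Cfb was called too (log2 fold change -3.95; adjusted p = 5.64e-04 by edgeR). In that fit 2.69% of all 13098 tested genes were called and 1.19% were called lower. In each of the other 5 fits that left out 1 library neither C1r nor C1s was called, with log2 fold changes from -0.11 to -0.063 for C1r over all 6 fits and from -0.22 to -0.11 for C1s. C1s was also called by edgeR with no filter on low counts (adjusted p = 0.016), where 0.988% of all genes were called. The ratio of C1r to C1s in FPKM was 6.11, 6.34 and 6.04 in controls and 6.60, 6.71 and 6.08 with RBM25, with replicate 3 again inside the control range (exact permutation test, two-sided p = 0.3, n = 3 each).

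Masp1 had overlapping groups, with 113, 114 and 118 CPM in controls and 108, 114 and 112 CPM with RBM25. Its log2 fold change of -0.044 did not pass (95% interval -0.116 to 0.028; edgeR adjusted p = 0.685). The gene is known to give several proteins by alternative splicing, among them 2 proteases and a protein without a protease domain, and the gene-level counts do not separate these. In GRCr8 the span of Masp1 overlaps that of Rtp4, an interferon-inducible gene, as the span of C2 does that of Zbtb12 and the span of C1r that of an uncharacterized locus. The labels do not say whether counting used the strand, so the split of reads within these pairs is uncertain. Neither Rtp4 (log2 fold change 0.0058; edgeR adjusted p = 0.994) nor Zbtb12 (-0.0087; 0.990) was called.

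**Figure D3:**
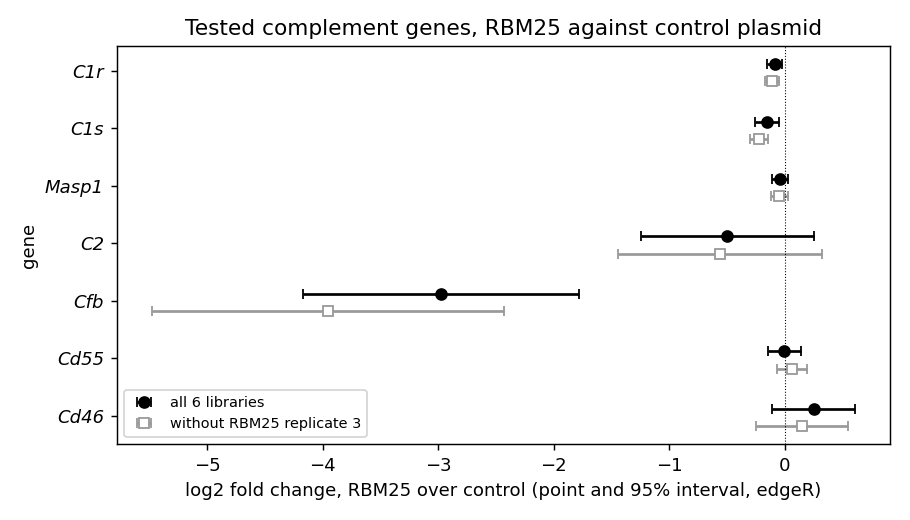
Log2 fold change, RBM25 over control, of the 7 complement genes with enough reads to be tested, with 95% intervals from edgeR. Black circles use all 6 libraries and open grey squares leave out RBM25 replicate 3. The interval of Cfb (-4.17 to -1.78) lies far from 0, those of C1r and C1s lie just below 0, and those of Masp1, C2, Cd55 and Cd46 include 0.

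No member among the regulators was called. Cd55 had overlapping groups, at 31.5, 26.4 and 27.97 CPM in controls and 30.6, 28.8 and 25.8 CPM with RBM25, the lowest of the 6 being RBM25 replicate 3. Its log2 fold change was -0.0053 (95% interval -0.149 to 0.139; edgeR adjusted p = 0.989), and its sign turned in 2 of the 6 fits without 1 library. Cd46, a cofactor for cleaving C3b, had 56, 56 and 67 control reads and 73, 78 and 80 RBM25 reads. In CPM its RBM25 libraries were above all controls, but the closest pair differed little (2.20 CPM in control replicate 1 and 2.21 CPM in RBM25 replicate 1), and the log2 fold change of 0.25 did not pass (95% interval -0.11 to 0.61; edgeR adjusted p = 0.63). Serping1 had 1, 0 and 1 reads in controls and 0, 1 and 0 with RBM25. Both groups are at or under 3 reads, so no fold was computed, and a difference was not detectable at this depth.

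Of the 7 tested genes, 1 (Cfb) was called lower and 6 did not pass. The log2 fold change was negative for 6 of the 7, and its median was -0.089. Over all genes tested it was negative for 51.2%, with a median of -0.0021. The groups did not overlap for Cfb, C2 and C1r (lower) and Cd46 (higher), 4 of 7, against 16.2% of all tested genes. Cfb was among the tested genes only through its control libraries, so its part in these counts was set by the filter. Of the other 6 tested genes none was called, 5 had negative values and 3 did not overlap between the groups. These genes were proposed with earlier results of the same data known and are few, and the exact permutation test of a single gene cannot go below p = 0.1, the value reached by each of those 4.

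**Figure D4:**
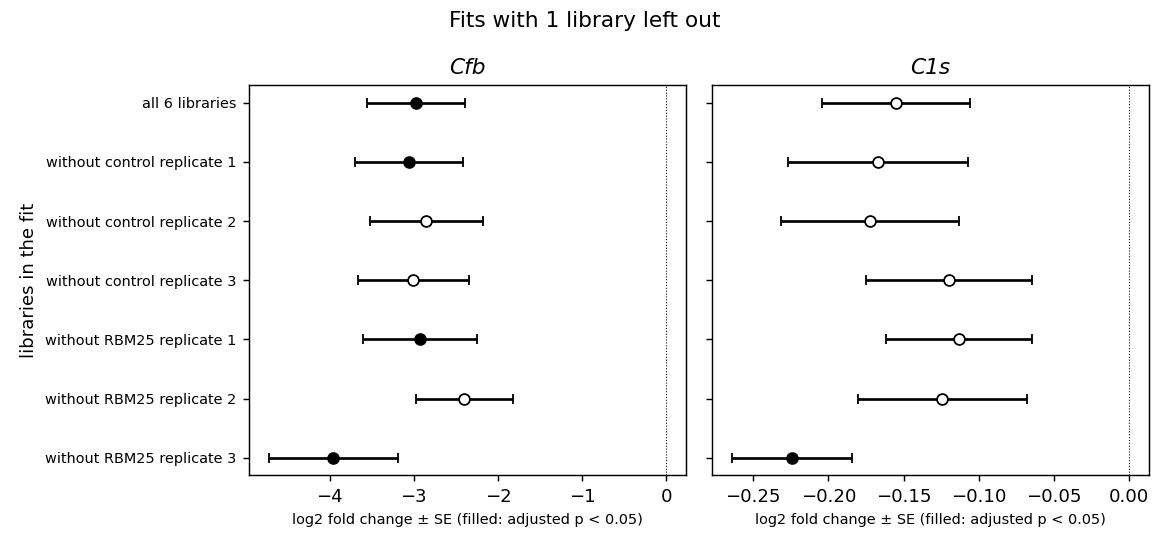
Log2 fold change with its SE for Cfb (left) and C1s (right) with all 6 libraries and with each library left out in turn, each panel on its own scale. Filled points have an edgeR adjusted p under 0.05. Cfb stays between -3.95 and -2.40 and is filled in 3 of the 6 fits that leave out a library; C1s is filled only without RBM25 replicate 3.

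The rest of the pathway was mostly at or near the limit of detection. Of 46 other complement genes in 6 lists, 33 were listed in the count table, 17 of these had under 10 reads in all 6 libraries together, and 6 had enough reads to be tested. None of the 6 was called by edgeR, 1 had an unadjusted p under 0.05, and DESeq2 also called 0. Over all 12882 genes tested, edgeR called 52, and 1441 had an unadjusted p under 0.05. The median log2 fold change of the 6 tested genes in these lists was 0.049, against -0.0021 over all genes tested. The recognition protein of C1 was nearly without reads: C1qa had 2 in all, and C1qb and C1qc were not listed. C4a, a substrate of C1s, had 43 control reads and 55 RBM25 reads (ratio 1.18, exact 95% interval 0.778 to 1.80); C4a and C4b are near-identical copies, so their separate counts are uncertain. Colec11, a lectin that can carry MASP proteases, was at 0.271 ± 0.0552 CPM in controls and 0.279 ± 0.0267 CPM with RBM25 (SD, n = 3 each) and was not tested.

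Properdin, the product of Cfp that stabilises the alternative convertase, had the largest upward value of the 6 tested genes in these lists. Cfp had 26, 35 and 40 reads in controls and 57, 64 and 37 with RBM25. In CPM the RBM25 libraries were above all controls, the nearest being RBM25 replicate 3 (1.32 CPM) and control replicate 3 (1.29 CPM). Its log2 fold change was 0.52 ± 0.22 (SE; 95% interval 0.063 to 0.979) and did not pass (edgeR adjusted p = 0.364; unadjusted p = 0.0274). The ratio of its summed reads was 1.44, with an exact 95% interval of 1.12 to 1.87 that covers counting error only. Properdin and factor B act on the same convertase; the log2 fold changes of their genes had opposite signs, and the difference between them was not tested. Cfd, which encodes the protease that cleaves factor B, had 11 control reads and 10 RBM25 reads and was not tested.

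Membrane and fluid-phase protection was represented by abundant transcripts. Clu, which encodes clusterin, an inhibitor of the terminal complex, was at 46.6 ± 2.37 FPKM in controls and 44.0 ± 4.67 FPKM with RBM25 (SD, n = 3 each), second only to C1r among the complement genes. Cd59, which blocks pore assembly, was at 20.3 ± 0.44 and 21.4 ± 0.454 FPKM, and Cr1l at 16.7 ± 0.332 and 17.0 ± 0.49 FPKM. None of these 3 passed (log2 fold changes -0.088, 0.076 and 0.023; edgeR adjusted p = 0.724, 0.561 and 0.865). In control cells Cd59 and Cr1l were each above Cd55 and Cd46 in every library. Among terminal components C8g did not pass (log2 fold change -0.26; adjusted p = 0.592 by edgeR) and C9 had 23 control and 25 RBM25 reads, while C5, C6, C7 and C8b were not listed. No receptor gene had enough reads to be tested, the highest being Itgax with 5 reads in each group, followed by C5ar2 with 4 in each.

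Genes of signalling proteins and transcription factors known to act on complement genes were also read from the same fit. Of 17, 16 were tested, none was called by edgeR, 11 log2 fold changes were negative and the median log2 fold change was -0.045. Over all genes tested, 0.404% were called and 51.2% were negative, with a median of -0.0021. The groups did not overlap for 4 of the 16, against 16.2% of all tested genes. Il6st, the shared receptor chain of the interleukin-6 family, was at 309 ± 6.94 CPM in controls and 302 ± 11.0 CPM with RBM25 (SD, n = 3 each).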

How the data were processed

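Poly(A) RNA of 6 H9C2 libraries was sequenced as strand-marked read pairs, per the labels' protocols. The submitters' processing notes name HISAT2, DESeq2 and the build mRatBN7.2. Which program counted reads, with which strand setting and annotation, is not stated in them. The authors deposited raw read counts as whole numbers, and FPKM values that they rounded to 2 decimals; how gene length was defined is not stated.

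The main test was edgeR 4.0.16 (R 4.3.3) on the counts: filterByExpr with a minimum count of 10 (12882 genes kept), TMM scaling, a robust quasi-likelihood F-test of group without covariates, and Benjamini-Hochberg adjustment over all tested genes. A gene was called at an adjusted p under 0.05. The SE was taken as the size of the log2 fold change divided by the square root of F. Summed reads of low genes were compared by exact 95% binomial intervals. The main test was checked on counts simulated with each gene's fitted spread. That setting holds no library that stands apart from its group, as RBM25 replicate 3 did. Alternatives used DESeq2 1.42.0, limma 3.58.1 on FPKM, other filters and scaling, and fits without 1 library.

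The members and lists were chosen with earlier results of these data known. Named genes are the 9 members, Rbm25, any called gene of the other complement lists and the 2 genes of highest mean CPM in each of those lists and in that of the transcriptional regulators, some of which are not reported here; C1qa, C1qb, C1qc, C4b, C5, C6, C7, C8b, Rtp4, Zbtb12, Rbm25l1, Actc1, Tnni1, Epcam, Cdh1, Alb, Ptprc, Adgre1 and Tyrobp were named after their values were seen. Listed symbols were matched directly, with 1 changed to the table's symbol through a RefSeq synonym (GRCr8); no coordinates are given because that build differs.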

Additional observations from a re-analysis of the deposited data

How the results depend on the processing

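The count of called members was 1 of 7 with all libraries. It was also 1 with RLE factors and with DESeq2 on the filtered genes. It was 2 with no filter on low counts (Cfb and C1s), and 0 with a minimum count of 30, which leaves Cfb out, with FPKM at either pseudocount (0.1 or 1), and with DESeq2 without the filter, an alternative chosen after seeing the data. Fits without 1 library gave 0 to 3 called members. The count over all genes was 52. It was 205 without the filter, 7 and 5 on FPKM with pseudocounts of 0.1 and 1, and 5 to 352 in fits without 1 library, the lowest without control replicate 2, then 21 without control replicate 3, and the highest without RBM25 replicate 3. The cause of these differences was not tested, beyond the genes that a filter removes. With the pseudocount of 1, the log2 difference of Cfb was -0.23 (limma-trend adjusted p = 0.364). The sign of Cd55 turned to 0.067 without control replicate 1 and to 0.058 without RBM25 replicate 3, within a range of -0.061 to 0.067 over fits without 1 library. The log2 fold change of Rbm25 was 0.27 to 0.35 in fits without 1 library and lost its call without control replicate 2 (edgeR adjusted p = 0.0842) and on FPKM (0.30 and 0.28; limma-trend adjusted p = 0.254 and 0.308). The C3 read ratio ranged from 0.232 to 1.83 in fits without 1 library. Control levels in FPKM moved by less than 1 SD without any 1 control library, and no other complement gene was called under any alternative run.

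The groups share replicate numbers. Same-numbered libraries had correlations of 0.10, -0.084 and 0.010 in their deviations from the group means, and 2 of 6 libraries correlated best with their own number. With 3 libraries in each group and genes of few reads included, these values cannot settle whether the numbers pair the libraries. A fit with the replicate number as a block called 436 of 12882 tested genes, 178 of them lower. It called 3 of 7 tested members, all lower: Cfb, C1s (edgeR adjusted p = 0.00154) and C1r (edgeR adjusted p = 0.0332). Cfb again entered the test through its control libraries alone. Depth limits C3, Serping1, C2 and Cfb, which had 3 to 76 reads each over 6 libraries.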
